A study of Bos taurus with 15 samples.

Results

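Genes that move ions and water were examined in bovine (Bos taurus) blastocysts at day 7. The 9 genes were ATP1B1, ATP1B3, FXYD3, FXYD4, AQP3, AQP11, SLC9A3, SLC12A2 and SLC34A2, out of 17259 genes measured. They were chosen by symbol, with earlier results of these libraries known. Their levels and the differences between groups are therefore given as a description, with no test of these genes alone. Calls of members in tests over all genes are listed below, and nothing is read from them. A filter on low counts was passed by 8 of the 9, and SLC9A3 did not pass it.

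Poly(A) RNA was sequenced in 3 groups of 5 libraries. The first group held blastocysts collected in vivo at day 7. The other groups came from zygotes stripped of their cumulus cells by hand (manual denudation) or with an automated method (automatic denudation) and then grown to day 7 in SOF, a culture medium modelled on oviduct fluid. The sources used here do not give breed, genotype or the age of the donors. The labels give 5 blastocysts per group but do not say outright whether a library is 1 blastocyst or a pool, nor whether separate cultures or donors stand behind the libraries of a group. Any p-value therefore measures the spread between these libraries alone, which may be technical.

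The blastocyst is a fluid-filled ball whose outer epithelium, the trophectoderm, pumps sodium into the central cavity, the blastocoel. The sodium pump Na,K-ATPase in the basolateral membrane drives this movement, sodium enters the cell on the outer face through exchangers and cotransporters, and water follows the salt, in part through aquaporins. Na,K-ATPase needs a beta subunit that brings it to the membrane, and small FXYD proteins tune its activity.

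The libraries held between 17963944 and 41974214 counts. In 5 libraries (in vivo 2, in vivo 4, manual 2, automatic 2 and automatic 4) only 6977 to 8547 genes reached 10 counts, against 9900 to 12611 in the other 10. Mitochondrial transcripts made up 8.18% to 14.4% of all counts in the 5 and 3.26% to 9.99% in the 10. The 5 are called low-detection libraries below, a group made from the data and not by the study. Levels are in CPM, counts scaled to a common library size with TMM factors, and are compared between libraries but not between genes, because no transcript lengths were used. Over the 9 genes and 15 libraries 25 values were 0 counts, of which 12 lay in the low-detection libraries. A count of 0 allows up to 3 counts, which is 0.0614 to 0.230 CPM depending on the library, for counting error only.

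Of the 8 members that passed the filter, SLC34A2 and FXYD4 lay farthest below the in vivo level, both in the automatic group and in the mean of the cultured groups. SLC34A2 encodes a sodium-phosphate cotransporter of apical epithelial membranes. It stood at 1520.2 ± 727 CPM in vivo, 522 ± 509 CPM in the manual group and 200.3 ± 159 CPM in the automatic group (SD, n = 5 each). FXYD4, a regulator of Na,K-ATPase, stood at 451 ± 218, 273 ± 127 and 88.1 ± 48.6 CPM in the same order (SD, n = 5 each). The ranges of SLC34A2 overlapped between all 3 groups, and those of FXYD4 between the in vivo and manual groups. AQP3, an aquaporin that also carries glycerol, and ATP1B3, a beta subunit of Na,K-ATPase, had overlapping ranges in the 3 groups as well. SLC9A3, a sodium-proton exchanger, had counts in 3 in vivo libraries and in no cultured library. The share of all genes with counts in vivo alone was not counted. By the edgeR quasi-likelihood test over all genes, 0 of the 8 members that passed the filter were called at an adjusted p under 0.05 in any comparison. Over all 11578 genes kept the share called was 0.0173% for the mean of both cultured groups against in vivo, 0.0173% for automatic denudation against in vivo, 0% for manual denudation against in vivo and 0% for automatic against manual denudation. Other tools called more genes. For the mean of both cultured groups against in vivo DESeq2 called SLC34A2 (0.751% of all genes called) and limma-voom with quality weights FXYD4 and SLC34A2 (0.924%). For automatic denudation against in vivo both DESeq2 (0.751%) and limma-voom (0.821%) called FXYD4 and SLC34A2. With edgeR, SLC34A2 was also called for both cultured groups when manual 3 was left out (0.0589%). All these fits drew on the same 15 libraries. Nothing is read from the calls or their number, since the members were chosen with these comparisons known. In bulk libraries fewer cells of a type and less RNA per cell cannot be told apart.

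**Figure D1:**
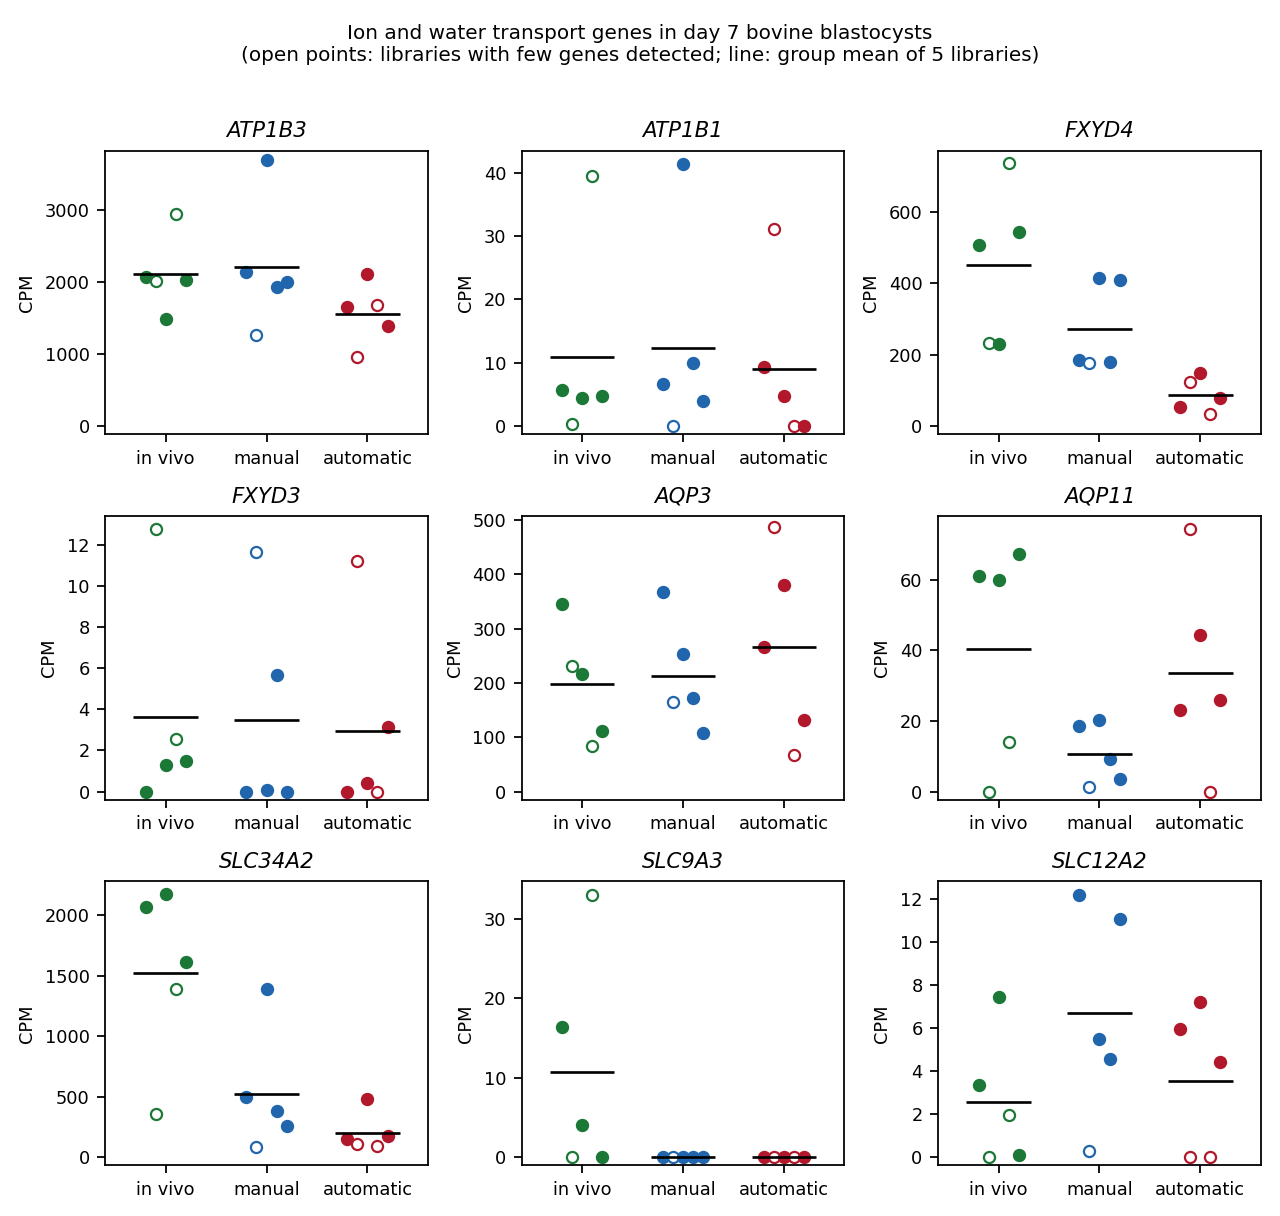
CPM (vertical axes, linear, a scale for each gene) of the 9 genes in the in vivo, manual and automatic groups, with 1 point per library, open points for the 5 low-detection libraries and a line at the mean of 5 libraries. With TMM scaling, FXYD4 after automatic denudation lies at or below 150.0 CPM and in the other groups at or above 178 CPM. SLC9A3 is above 0 only in 3 in vivo libraries.

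The pump subunits were examined first. ATP1B3 was measured at 2064, 2012, 1492, 2951 and 2036 CPM in in vivo libraries 1 to 5. After manual denudation the values were 2146, 1269, 3691, 1933 and 2009 CPM, and after automatic denudation 1649, 965, 2111, 1682 and 1392 CPM. All 3 groups overlapped, and manual 3 was the highest library and automatic 2 the lowest. The log2 difference was -0.44 ± 0.30 (SE) for automatic and 0.07 ± 0.30 for manual denudation against in vivo, and -0.50 ± 0.30 between automatic and manual. The manual difference from in vivo lay between -0.21 and 0.25 over fits that left out 1 library, so that it had no settled sign. For the mean of both cultured groups against in vivo, ATP1B3 turned from -0.19 ± 0.26 to 0.14 ± 0.26 without the low-detection libraries and to 0.02 with scaling by library size alone.

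ATP1B1, the other beta subunit, varied more between libraries of a group. It was measured at 5.78, 0.383, 4.48, 39.5 and 4.73 CPM in in vivo libraries 1 to 5, and at 6.63, 0, 41.4, 9.90 and 4.0 CPM in the manual libraries. The automatic libraries held 9.38, 31.1, 4.69, 0 and 0 CPM. Each group thus held 1 library far above the other 4 (in vivo 4, manual 3 and automatic 2) and 1 or 2 libraries at or near 0. The group means were 10.97 ± 16.1, 12.4 ± 16.6 and 9.03 ± 12.9 CPM for in vivo, manual and automatic (SD, n = 5 each), so the SD exceeded the mean in every group. The log2 difference for the mean of both cultured groups against in vivo was -0.05 ± 1.52 (SE) and ran from -0.73 without automatic 2 to 1.48 without in vivo 4.

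ATP1B2, which encodes a further beta subunit, differed by 0.82 ± 1.48 on the log2 scale (SE) for the mean of both cultured groups against in vivo (edgeR adjusted p = 0.999). It lay at 6.29 ± 8.67, 7.18 ± 5.05 and 17.1 ± 12.4 CPM in the in vivo, manual and automatic groups (SD, n = 5 each), ranges that overlapped.

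FXYD4 was lowest in the automatic group. It was measured at 509, 234, 231, 737 and 545 CPM in in vivo libraries 1 to 5, at 184, 178, 416, 179 and 409.9 CPM after manual denudation and at 53.5, 125, 150.0, 33.6 and 78.5 CPM after automatic denudation. On the TMM scale every automatic library lay below every manual and every in vivo library, while the manual and in vivo ranges overlapped. FXYD4 had 6202 counts of 33481731 in automatic 3, 3062 of 24071544 in in vivo 2 and 3799 of 27300437 in manual 2. By counts per library total, automatic 3 lay above in vivo 2 and manual 2. The separation thus depended on the TMM factors, which were 1.24, 0.543 and 0.782 in the same order. Among all genes kept, 0.527% had every automatic library below every manual library and 1.16% had every automatic library below every in vivo library. FXYD4 was the only one of the 8 members in either set. The log2 difference was -2.36 ± 0.48 (SE) for automatic and -0.72 ± 0.46 for manual denudation against in vivo, and -1.63 ± 0.47 between automatic and manual. These comparisons share libraries, so the 3 values are not independent. FXYD4 lay below 0 in all 23 alternative fits of each comparison. Without the low-detection libraries its means were 428 ± 172 CPM in vivo (n = 3), 297 ± 134 CPM after manual (n = 4) and 94.0 ± 50.1 CPM after automatic denudation (n = 3, SD).

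FXYD3, a relative of FXYD4 and also a partner of Na,K-ATPase, stayed below 13 CPM. It was measured at 0, 12.8, 1.29, 2.56 and 1.47 CPM in in vivo libraries 1 to 5, at 0, 11.7, 0.0632, 5.69 and 0 CPM after manual denudation and at 0, 11.2, 0.411, 0 and 3.12 CPM after automatic denudation. In each group the highest value was that of library 2, which is a low-detection library in all 3 groups. The log2 differences of FXYD3 were within 1 SE of 0 and changed sign between alternative fits: -0.17 ± 1.83 for the mean of both cultured groups against in vivo and -0.24 ± 2.13 between automatic and manual denudation. Of the FXYD genes outside the 9, FXYD6 was the 1 that passed the filter, at 32.9 ± 11.3, 28.1 ± 14.7 and 17.5 ± 7.71 CPM in the in vivo, manual and automatic groups (SD, n = 5 each). It did not pass the test for the mean of both cultured groups against in vivo (log2 -0.57 ± 0.62, edgeR adjusted p = 0.999). FXYD1, FXYD2, FXYD5 and FXYD7 were too low to be tested.

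**Figure D2:**
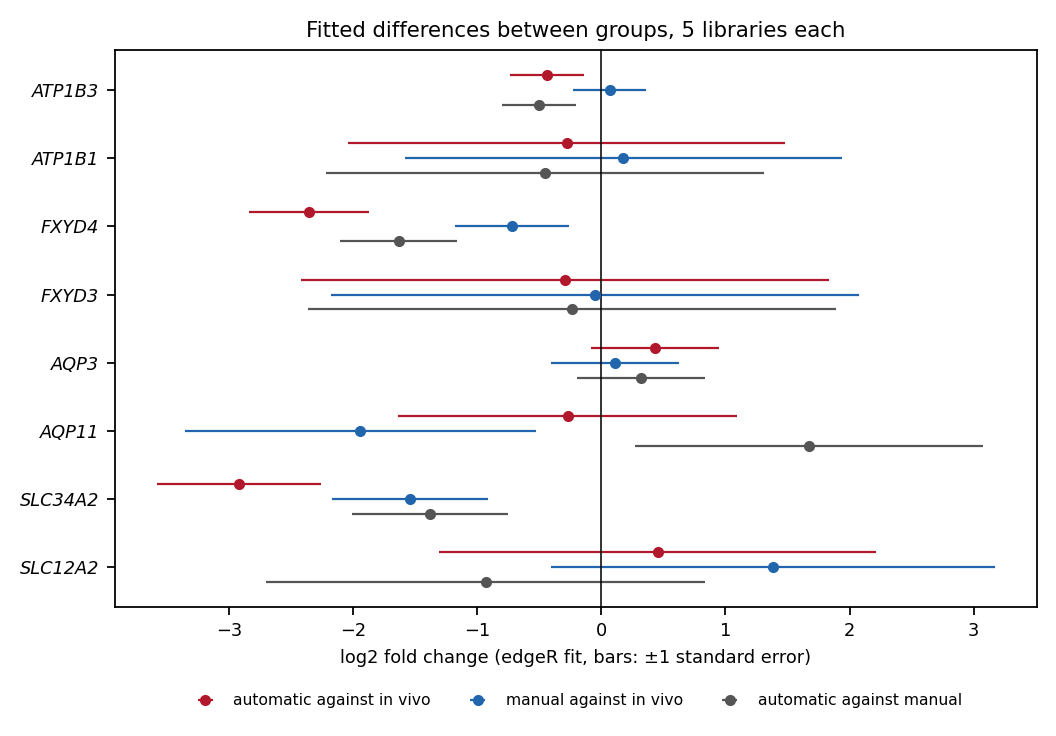
Fitted log2 fold changes (horizontal axis) of the 8 members that passed the low-count filter, with bars of 1 standard error, for automatic against in vivo (red), manual against in vivo (blue) and automatic against manual (grey). SLC34A2 and FXYD4 lie below 0 by more than 1 standard error in all 3 comparisons, and the bars of ATP1B1 and FXYD3 cross 0 in all 3.

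Among the carriers, SLC34A2 was highest in vivo. It was measured at 2070.3, 355, 2176, 1389 and 1611 CPM in in vivo libraries 1 to 5. After manual denudation it was at 497, 84.7, 1391, 379 and 258 CPM, and after automatic denudation at 147, 111, 478, 88.2 and 177 CPM. In vivo 2 was the low library of its group, manual 3 the high one of the manual group and automatic 3 that of the automatic group. Manual 1, 3 and 4 and automatic 3 lay above in vivo 2, manual 3 also lay just above in vivo 4, and the manual and automatic ranges overlapped widely. The log2 difference was -2.92 ± 0.66 (SE) for automatic and -1.54 ± 0.63 for manual denudation against in vivo, and -1.38 ± 0.63 between automatic and manual, with shared libraries between these comparisons. Single libraries moved these values: without manual 3 they were -2.33 for manual against in vivo and -0.59 for automatic against manual, and without automatic 3 they were -3.54 for automatic against in vivo and -1.98 for automatic against manual. SLC34A2 lay below 0 in all 23 alternative fits of each comparison. The related cotransporter genes SLC34A1 and SLC34A3 had 0 counts in every library.

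With the low-detection libraries set aside, SLC34A2 and AQP11 were the 2 of 8 members for which all 7 cultured libraries lay below all 3 in vivo libraries. The share of all genes kept with that arrangement was 2.22%. These libraries were chosen after seeing the data. Left out were in vivo 2 and in vivo 4, which held the lowest in vivo values of both genes. They were at 355 and 1389 CPM for SLC34A2 and at 0 and 13.95 CPM for AQP11. Nothing is read from this share, since the members were chosen with these comparisons known. SLC34A2 lay between 1611 and 2176 CPM in these in vivo libraries, at 147 to 478 CPM after automatic and 258 to 1391 CPM after manual denudation. In this fit it differed by log2 -2.25 ± 0.46 (SE) for the mean of both cultured groups against in vivo, close to the -2.23 ± 0.51 with all libraries.

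SLC9A3, the apical sodium-proton exchanger NHE3, had 723, 0, 197, 722 and 0 counts in in vivo libraries 1 to 5, which is 16.4, 0, 4.03, 33.0 and 0 CPM. It had 0 counts in all 10 cultured libraries. How many of all genes had counts in vivo alone was not counted, so nothing is read from this arrangement. The mean of 10.7 ± 14.2 CPM in vivo (SD, n = 5) was at least 486-fold higher than the floor of 3 counts over the 5 manual libraries (0.0220 CPM) and at least 549-fold higher than that over the 5 automatic libraries (0.0194 CPM). These bounds cover counting error and not the spread between in vivo libraries, of which 2 were also at 0. SLC9A3 did not pass the filter on low counts, and its difference is given by these counts alone. Its scaffold NHERF1, which tethers SLC9A3 to the apical actin network, was measured at 807 ± 264, 624 ± 432 and 367 ± 174 CPM in the in vivo, manual and automatic groups (SD, n = 5 each). NHERF1 did not pass the test for the mean of both cultured groups against in vivo (log2 -0.75 ± 0.36, edgeR adjusted p = 0.805).

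SLC12A2, the cotransporter of sodium, potassium and chloride known as NKCC1, had 0 or few counts in several libraries. It was measured at 3.35, 0, 7.42, 1.97 and 0.0733 CPM in in vivo libraries 1 to 5, at 12.2, 0.281, 5.47, 4.56 and 11.1 CPM after manual denudation and at 5.97, 0, 7.18, 0 and 4.41 CPM after automatic denudation. The 3 libraries at 0 were all low-detection libraries, and the groups overlapped. The log2 difference was 0.45 ± 1.76 (SE) for automatic and 1.38 ± 1.79 for manual denudation against in vivo.

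The aquaporins differed in how steady they were. AQP3 was measured at 346, 230.4, 217, 83.1 and 112 CPM in in vivo libraries 1 to 5, at 367, 166, 253, 173 and 107 CPM after manual denudation and at 266, 487, 379.7, 67.4 and 132 CPM after automatic denudation. The ranges overlapped almost wholly, and both the highest and the lowest library of all 15 were in the automatic group. The log2 difference was 0.43 ± 0.52 (SE) for automatic and 0.11 ± 0.51 for manual denudation against in vivo, and 0.32 ± 0.52 between automatic and manual. The manual difference had no settled sign, at -0.18 without manual 1 and 0.41 without in vivo 1.

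AQP11, an aquaporin of intracellular membranes, was measured at 61.2, 0, 59.9, 13.95 and 67.4 CPM in in vivo libraries 1 to 5. After manual denudation it was at 18.4, 1.27, 20.2, 9.15 and 3.63 CPM, and after automatic denudation at 23.1, 74.3, 44.3, 0 and 26.0 CPM. The low-detection libraries held both zeros, the lowest manual value and also the highest value of all, in automatic 2. With all libraries the log2 difference was -1.94 ± 1.41 (SE) for manual and -0.27 ± 1.37 for automatic denudation against in vivo, and 1.67 ± 1.40 between automatic and manual. Without the low-detection libraries AQP11 lay at 59.9 to 67.4 CPM in vivo (n = 3), 23.1 to 44.3 CPM after automatic (n = 3) and 3.63 to 20.2 CPM after manual denudation (n = 4), and these ranges did not overlap. In these libraries 2.92% of all genes kept had every manual library below every automatic one, and 0.0864% had in addition every automatic library below every in vivo one. AQP11 was 1 of 8 members in each set, and since its order was known when it was chosen, nothing is read from these shares. In that fit the log2 difference was -2.30 ± 0.56 for manual and -0.999 ± 0.60 for automatic denudation against in vivo, and 1.30 ± 0.55 between automatic and manual. Without automatic 4 alone, AQP11 after automatic denudation was at 0.06 against in vivo, the 1 fit of that comparison with a value above 0. Of the aquaporin genes outside the 9, AQP4 was the 1 that passed the filter, at 2.01 ± 1.43 CPM in vivo, 2.03 ± 2.06 CPM in the manual group and 0.810 ± 0.854 CPM in the automatic group (SD, n = 5 each).

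Because the trophectoderm carries out blastocoel filling, the level of its marker transcripts was set beside FXYD4 and SLC34A2. The summed CPM of 19 trophectoderm marker genes ran from 19155 to 35389.6 in vivo (median 27047), from 10693 to 39815 after manual (median 14574) and from 7447 to 17989.8 after automatic denudation (median 11900.4). The keratins KRT8, KRT18 and KRT19 made up 51.0% to 85.9% of that sum. Of 18 markers that passed the filter 12 lay below 0 for automatic denudation against in vivo (median log2 -1.22), 14 for manual denudation against in vivo (median -0.32) and 15 for automatic against manual (median -0.73). Over all genes kept 52.4%, 50.6% and 52.9% lay below 0 in the same order. By edgeR 0 of the 18 markers passed the test in any of these comparisons.

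Per 1000 CPM of the marker sum, FXYD4 stood at 15.7 ± 5.36 in vivo, 15.5 ± 7.66 after manual and 7.17 ± 3.26 after automatic denudation (SD, n = 5 each). On this scale the automatic range of 4.22 to 12.2 overlapped the in vivo range of 9.59 to 22.3. SLC34A2 stood at 53.8 ± 26.4, 22.6 ± 10.3 and 15.1 ± 6.59 in the same order, and its automatic range of 10.8 to 26.6 overlapped the in vivo range of 18.5 to 90.5. The part of the trophectoderm share in these differences was not tested.

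**Figure D3:**
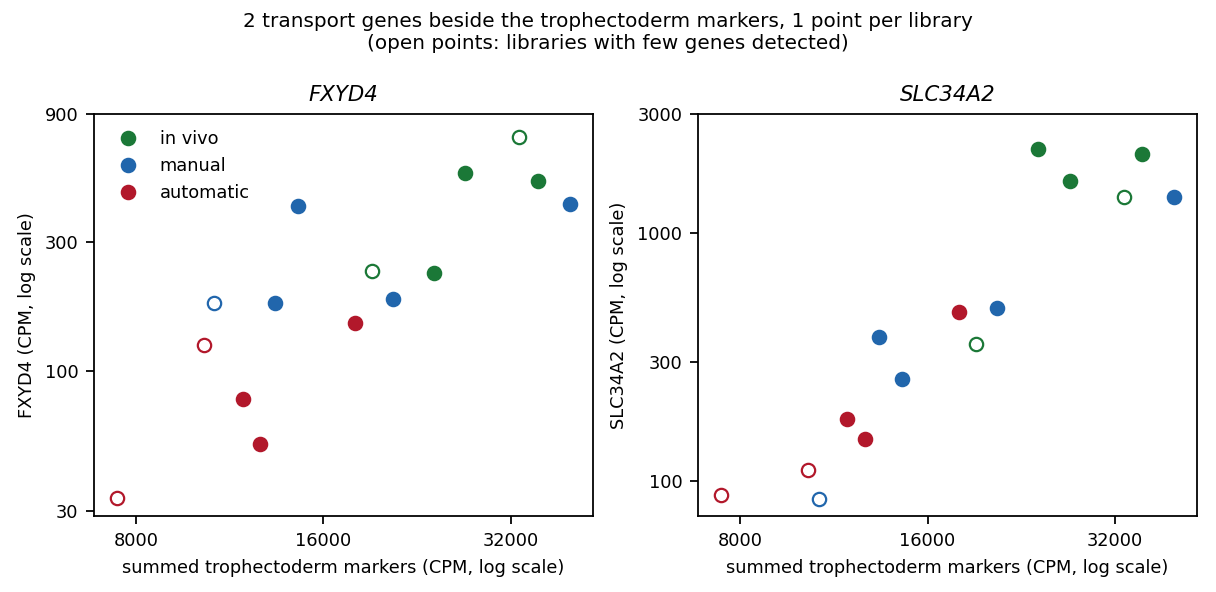
CPM of FXYD4 (left) and SLC34A2 (right, both vertical axes on a log scale) against the summed CPM of 19 trophectoderm markers (horizontal axes, log scale), with 1 point per library and open points for low-detection libraries. The in vivo libraries lie between 19155 and 35389.6 CPM of markers and the automatic libraries between 7447 and 17989.8 CPM, and manual 3 is the highest of all at 39815 CPM.

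Marker transcripts of other cell types were measured at varied levels. Markers of the epiblast, the founder of the embryo proper, summed to 1401 to 4841 CPM in vivo, 1608 to 4788 CPM in the manual and 1621 to 4226 CPM in the automatic libraries, with NODAL at 0 in the automatic group (12 markers). Markers of the hypoblast, the inner epithelium, summed to 3693 to 6666, 4886 to 6971 and 5489 to 7972 CPM in the same order (13 markers), and FOXA2 was at 0 in vivo and after manual denudation. Cumulus and granulosa cell markers summed to 20.4 to 224 CPM in vivo, 35.8 to 138 CPM in the manual and 19.1 to 43.2 CPM in the automatic libraries (12 markers), with FOXL2 at 0 in every group. Of these 12 markers 5 passed the filter on low counts. INHA was at 0 in vivo and in the manual group, NR5A1 in vivo and in the automatic group, and PTX3 in the automatic group. Whether cumulus or granulosa cells were in the libraries was not tested. The part of these cell types in the differences above was not tested.

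Other genes of ion and water transport were examined as families. Apart from the 9, the 8 families examined held 124 genes of the table, of which 71 passed the filter. For the mean of both cultured groups against in vivo 41 of 71 lay below 0, with a median log2 difference of -0.13, beside 51.8% and -0.04 over all genes kept. Over the alternative fits that median ran from -0.41 without automatic 3 (43 of 72 below 0) to 0.004 without in vivo 3 (36 of 73 below 0). By edgeR 0 of 71 passed, 5 had an unadjusted p under 0.05 (4 lower and 1 higher, 7.04% beside 6.13% of all genes), DESeq2 called 0 and limma-voom with quality weights 1. For automatic denudation against in vivo 40 of 71 lay below 0 (median -0.19), beside 52.4% and -0.06 over all genes kept. The alternative fits put this median between -0.52 without automatic 3 and 0.01 without in vivo 3. By edgeR and by DESeq2 0 passed, and by limma-voom with quality weights 2. An unadjusted p under 0.05 by edgeR was found for 7 (9.86% beside 5.36%). For manual denudation against in vivo 36 of 71 lay below 0 (median -0.02), beside 50.6% and -0.02 over all genes kept. Here the median was -0.18 by limma-voom with quality weights, 0.09 with scaling by library size alone and 0.19 without in vivo 3. By any of the 3 tools 0 passed, and 1 gene had an unadjusted p under 0.05 by edgeR. For automatic against manual denudation 38 of 71 lay below 0 (median -0.07), beside 52.9% and -0.05 over all genes kept. Its median ran from -0.40 with the replicate number added to the fit as a block to 0.05 without manual 3. By any of the 3 tools 0 passed, and the 1 gene with an unadjusted p under 0.05 by edgeR was PRSS8.

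**Figure D4:**
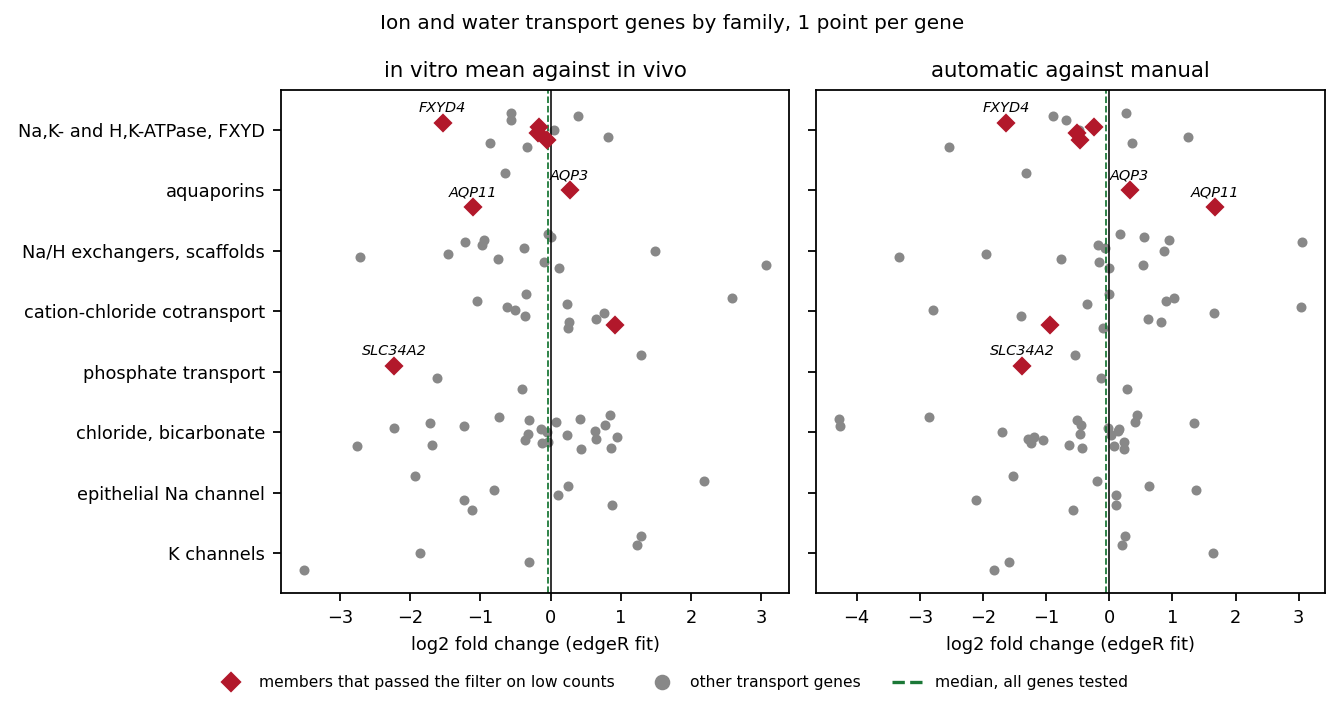
Fitted log2 fold changes (horizontal axes) of transport genes that passed the low-count filter, 1 point per gene in rows by family, for the mean of both cultured groups against in vivo (left) and automatic against manual denudation (right). Red diamonds are the 8 members that passed, grey points the other 71 genes, and the dashed line is the median of all genes (-0.04 left and -0.05 right).

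By family, the gene outside the 9 with the smallest p for the mean of both cultured groups against in vivo was NHERF1 among the sodium-proton exchangers and their partners, described above. ST14, a membrane serine protease grouped with the regulators of the epithelial sodium channel, lay at 119 ± 78.4 CPM in vivo, 52.8 ± 40.8 CPM in the manual group and 18.3 ± 15.5 CPM in the automatic group (SD, n = 5 each). Its log2 difference was -1.93 ± 0.73 (SE, edgeR adjusted p = 0.694). KCNJ10, a potassium channel, differed by -3.51 ± 1.47 (edgeR adjusted p = 0.742) on levels of 6.38 ± 13.5 CPM in vivo, so that 1 library set most of its mean. CLIC4, an intracellular chloride channel protein, differed by 0.63 ± 0.30 (edgeR adjusted p = 0.805). SLC20A1, a phosphate transporter of another family than SLC34A2, differed by -0.41 ± 0.32 (edgeR adjusted p = 0.999) and lay at 441 ± 172, 301 ± 66.0 and 367 ± 175 CPM in the in vivo, manual and automatic groups. WNK3, a kinase that acts on cation-chloride cotransporters, differed by 2.58 ± 2.05, and AQP4 by -0.64 ± 1.16 (edgeR adjusted p = 0.999 for each).

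For automatic against manual denudation the genes with the smallest p of their family were PRSS8 (log2 -2.11 ± 0.97, SE), NHERF4 (-3.33 ± 1.71), SLC4A3 (-4.27 ± 2.36), SLC12A9 (-2.79 ± 1.76), ATP12A (-2.54 ± 1.66), KCNJ16 (-1.59 ± 1.39), AQP4 (-1.31 ± 1.39) and SLC20A1 (0.29 ± 0.38). The adjusted p was 0.9999 for each by edgeR. PRSS8, a protease known to activate the epithelial sodium channel, lay at 267 ± 157 CPM in vivo, 234 ± 222 CPM in the manual group and 54.5 ± 68.9 CPM in the automatic group (SD, n = 5 each). NHERF4, SLC4A3 and KCNJ16 had group means below 5 CPM.

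Genes whose levels followed those of a member most closely over the 15 libraries were found by the root mean square (RMS) difference of log2 CPM after each gene was centred on its own mean. All 15 libraries share depth and detection with the gene itself, so likeness here is a description. For FXYD4 the closest were KRT18 (RMS 0.57), FADS3 (0.57) and AKR1B1 (0.61), against a spread of FXYD4 itself of 1.22 on the log2 scale. KRT18, a keratin of the trophectoderm, lay at 7245 ± 2081 CPM in vivo, 5769 ± 3601 CPM in the manual group and 2571 ± 804 CPM in the automatic group (SD, n = 5 each). For SLC34A2 the closest were PTGES (0.76), SLC7A4 (0.78) and CTSH (0.81), against its own spread of 1.62. PTGES, a prostaglandin E synthase, averaged 75.4 ± 28.9, 48.9 ± 31.7 and 15.2 ± 8.73 CPM in these groups.

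For ATP1B3 the closest were CLIC1 (RMS 0.23), DEGS1 (0.25) and PDPN (0.31), against its own spread of 0.45. For AQP3 they were SDC4 (0.52), CKB (0.54) and AP2B1 (0.56), against 0.83. The genes nearest to AQP11 were RPTOR (0.93), PLXNB2 (1.02) and PPP1R11 (1.04), against 3.21. Without the low-detection libraries, which held both zeros of AQP11, its SD of log2 CPM was 0.09 in vivo, 1.13 after manual and 0.50 after automatic denudation. RPTOR and PLXNB2 each also had 1 library at 0 in vivo and 1 in the automatic group. Those nearest to SLC12A2 were FZR1 (1.10), EYA3 (1.11) and QPCTL (1.16), against 2.81. ATP1B1 and FXYD3 had no gene closer than 1.47 and 2.16, against their own spreads of 3.13 and 2.98.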

How the data were processed

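The deposited table gives, for each gene and library, an estimated count as a whole number, with library totals left unscaled by the authors. The tools listed are FastQC, fastp and kallisto, without version or role, per the submitters' processing notes. Not given in the sources used here were the transcript set, the genome build and whether molecular identifiers were counted, so coordinates are left out. Estimation divides reads between similar transcripts, which adds uncertainty for gene families such as these. All 9 symbols matched the ARS-UCD2.0 annotation, used for names alone. The table had 1 line without a gene name, which was empty and left out.

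Differences were tested in edgeR 4.0.16 (R 4.3.3) by the robust quasi-likelihood F test on TMM-scaled libraries and the 11578 of 17259 genes that filterByExpr kept. Rounding to whole numbers changed 0 values. The fit held all 15 libraries, with 1 mean for each group. Calls used a Benjamini-Hochberg adjusted p under 0.05 over all genes kept. A standard error (SE) was taken as the size of the log2 fold change over the square root of its F statistic. Log2 CPM used a prior count of 2. The fits were also run on simulated data with changes planted in both cultured groups alike, and the outcome is not reported here. No difference between automatic and manual denudation was planted, so those data could not test for one. Libraries of a group were compared by chi-square, and none agreed within sampling noise (at least 184 per degree of freedom).

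The members and gene lists were chosen with earlier results of these data known. Named besides the members were the gene with the smallest p of each transport family in 2 comparisons (some results of this rule are not reported here) and the 3 closest profiles among genes of mean CPM at least 5. Relatives of the members, CA4, and genes with 0 counts were named after their values were seen. Alternatives used DESeq2 1.42.0 and limma 3.58.1, other scalings and filters, the replicate number as a block, and fits without 1 library or without the low-detection libraries.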

Additional observations from a re-analysis of the deposited data

Results flagged for a closer look

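Single libraries stood apart from the other 4 of their group in 5 cases, each by a gap above 0.71 of the group's range (Dixon's 95% limit for 5 values). This was checked in 25 groups of values. For normally distributed values chance flags about 1 in 20 groups. The CPM values used were on a linear scale, and for ATP1B1 and FXYD3 the SD exceeded the mean, so that rate may not hold. All 5 cases were the highest library of their group. ATP1B1 was at 39.5 CPM in in vivo 4, a low-detection library, where the next in vivo library had 5.78 CPM. ATP1B1 was also at 41.4 CPM in manual 3, where the next manual library had 9.90 CPM. FXYD3 was at 12.8 CPM in in vivo 2 beside 2.56 CPM in the next library, and at 11.2 CPM in automatic 2 beside 3.12 CPM, both of them low-detection libraries. SLC34A2 was at 478 CPM in automatic 3, where the next automatic library had 177 CPM.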

How the results depend on the processing

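Each of 32 member differences (8 genes, 4 comparisons) was refitted in 23 alternative ways, 22 of them planned. Leaving out the low-detection libraries was chosen after seeing the data. All 736 refitted values lay within 1 SD between replicates of the reported one. That SD is between single libraries of a group on the log2 scale, a wide limit, so nothing is read from this. For FXYD3, automatic against manual ran from -1.94 to 1.05 and stayed within it. Of the 32 differences 20 kept their sign in every fit, among them all those of FXYD4, SLC34A2 and SLC12A2. All 4 SLC12A2 differences lay within 1 SE of 0, and automatic against in vivo fell to 0.02 without automatic 3. Scaling by library size alone moved the median of all genes for the mean of both cultured groups against in vivo from -0.04 to 0.10 on the log2 scale. Relative to that median FXYD4 was at -1.50 with TMM and -1.48 with library size, and SLC34A2 at -2.20 and -2.25.

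Counts of all genes called depended on the tool. For automatic against manual denudation edgeR called 0 genes, DESeq2 9, limma-voom with quality weights 1, and edgeR without the low-detection libraries 1. For the mean of both cultured groups against in vivo the count was 2, and 0 with library size alone, 87 by DESeq2, 107 by limma-voom, 7 without the low-detection libraries and 0 to 7 over fits without 1 library (7 without manual 3, 2 without automatic 4 and 0 without any other library). For automatic denudation against in vivo it was 2, and 0 with library size alone, 1 without a filter, 87 by DESeq2, 95 by limma-voom, 9 without the low-detection libraries and 0 to 4 over fits without 1 library (4 without manual 3). For manual denudation against in vivo it was 0, and 44 by DESeq2, 2 by limma-voom and 3 without the low-detection libraries. Among the other transport genes limma-voom called CA4, a membrane carbonic anhydrase, for the mean of both cultured groups (1 gene), and CA4 and NHERF1 for automatic denudation against in vivo (2 genes). All other alternatives called 0 of them. The cause of these differences was not tested.

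The labels share replicate numbers between groups without saying what a number marks. Same-numbered libraries correlated at 0.0014 to 0.38 in their deviations from the group means, with 8 of 15 pairs above 0.1. The median was 0.12, against -0.03 for other pairs, and 8 of 15 libraries were closest to one of their own number. The numbers were not taken as pairs, because the labels do not say what they mark. Whether same-numbered libraries share a source was not tested, and the main fit held no term for it. Of 11578 genes kept, edgeR with the replicate block called 8 for the mean of both cultured groups against in vivo. It called 7 for automatic and 1 for manual denudation against in vivo, and 0 for automatic against manual. SLC34A2 was among the 8 and among the 7. Nothing is read from this, since the members were chosen with these comparisons known. At 5 libraries a group, the standard errors for the mean of both cultured groups against in vivo were 1.83 for FXYD3 and 1.58 for SLC12A2 on the log2 scale (2.35 and 1.13 without the low-detection libraries), against 0.38 for FXYD4.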
